A study of Saccharomyces cerevisiae with 50 samples.

Results

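The kinetochore is the protein assembly that ties a centromere to a spindle microtubule, and the spindle checkpoint holds cells before anaphase until every kinetochore is attached. Budding yeast builds 1 small kinetochore on each point centromere, in ordered layers from the centromeric nucleosome to the microtubule. Several of its genes, and many other genes of the mitotic spindle, are known to be transcribed in waves during S phase and G2 of the wild-type cell cycle. A set of 41 open reading frames with these roles was taken by identifier from the 6205 measured in the series. It covers the layers from the centromere outward, the Aurora complex, shugoshin and the checkpoint.

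The strain was budding yeast (Saccharomyces cerevisiae) deleted for YOX1, whose product is a homeodomain protein that represses Mcm1-bound promoters of late M phase and early G1. Cells were arrested in G1 with alpha factor, released into YEPD (rich glucose medium) and collected at 25 times from 0 to 120 min, 5 min apart by the titles, although the treatment protocol names 10 min. Each time point was hybridised on 2 arrays, with the mutant in Cy5 and RNA of asynchronously growing wild-type yeast in Cy3. Dyes were not swapped and a synchronised wild-type culture was not analysed here, so a dye bias, the deletion and the difference between synchronised and asynchronous cells cannot be told apart in a mean ratio. The titles order the arrays in 2 sets, which the design text calls technical repeats. The number of cultures is not stated, and p-values below reflect how far time points lie from the fitted curve, not how cultures vary.

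All values are log2 ratios of mutant over reference, converted from deposited values whose log10 base and direction were inferred from the data. The deleted gene itself, YOX1, had negative values on 49 of 49 arrays, from -2.25 to -0.02 with a median of -1.08. At 0 min, genes that rise when MATa cells answer alpha factor were high on both arrays: FUS1 stood at 3.67 and 3.96, AGA1 at 4.88 and 6.02, STE2 at 1.55 and 2.16 and BAR1 at 2.52 and 3.06, while STE3 of MATalpha cells was at -0.16 and -0.40. At 20 min FUS1, AGA1, STE2 and BAR1 were below the reference, with means of both arrays of -0.80, -0.51, -1.08 and -2.76. The 6 arrays of 25, 40 and 55 min had an SD over genes of 0.74 to 1.23, against 0.33 to 0.83 on the other 44, ranges that overlap. Results that rest on them are therefore given with and without these 3 times. One array is titled 75 min but carries the source name of 0 min, and was counted as 75 min. The titles of 3 arrays of set 2 (0, 5 and 15 min) bear an unexplained letter M.

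Of the 41 genes, 40 were measured at 20 or more time points and tested. The exception was IML3 (YBR107C), a Ctf19 complex subunit with values on 3 arrays only, between -0.19 and 0.20. In all, 109 of the 2050 array values of the set were missing and 4 lay on the limits of the deposited scale. The absolute difference between the 2 arrays of a time point had a median of 0.20 over the set, against 0.26 over all genes.

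A wave with the common period of 70 min was called in 11 of 40 genes (27.5%) by limma's moderated F-test of a cosine and sine pair, with Benjamini-Hochberg adjustment over all genes and a threshold of 0.01. In a bulk culture, more cells in a phase and more RNA per cell cannot be told apart. The same test called 13.2% of the 6063 genes tested. The 11 were SGO1, CBF2, MIF2, SPC34, BUB1, NDC80, DSN1, DUO1, NUF2, OKP1 and MAD3. No tested gene of the outer Ctf19 complex, of the Aurora complex or SPC105 was among them. Their peak-to-trough sizes, the full height of the fitted wave, ran from 0.41 to 1.15 with a median of 0.80. Over all 40 genes the median size was 0.43 (quartiles 0.30 and 0.60), against 0.30 over all genes tested. Of the 40, 21 had an unadjusted p under 0.05, as did 2159 of all 6063.

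**Figure D1:**
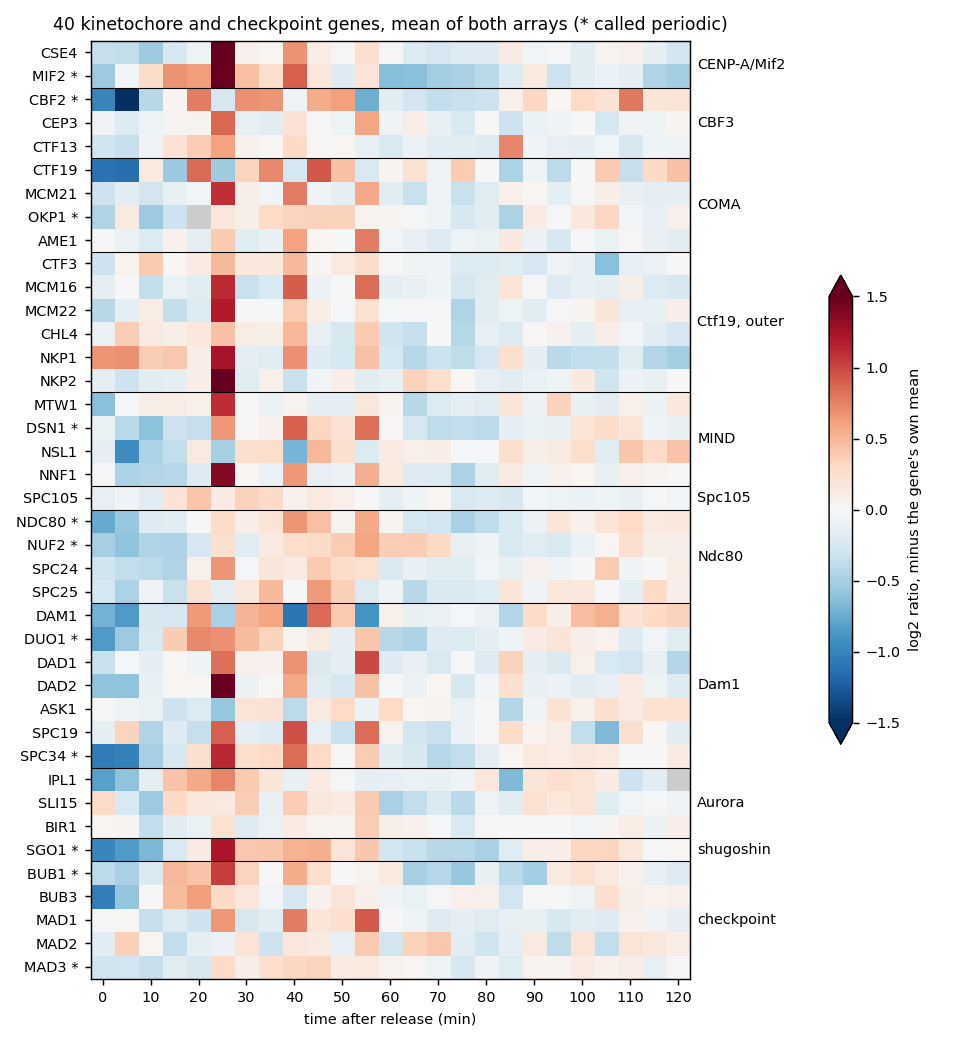
Log2 ratio of each of the 40 tested genes (rows, grouped by complex) at each time after release (columns, min), as the mean of both arrays minus the gene's own mean over the course; colours end at 1.5 either way and grey is missing. An asterisk marks the 11 genes called periodic. The columns of 25, 40 and 55 min differ from their neighbours in most rows, upward in most genes and downward in others, CBF2, CTF19, DAM1 and NSL1 among them.

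Without 25, 40 and 55 min the same test called 15 of 40 genes (37.5%), against 24.9% of all genes. The 15 included 10 of the 11 above. SPC105, SPC24, SPC25, DAM1 and ASK1 were gained and OKP1 was lost. The 2 array sets gave different counts. Set 1 alone called 10 of the 37 genes it measured at enough times, against 9.69% of all genes. Set 2 alone called 5 of 40, near the share of 11.5% over all genes. The arrays also carry 5 title dates, which largely follow the part of the course. A fit of single arrays, with the time point as a random block, called 7 of 40 genes with title date as a factor (12.3% of all genes) and 9 with array set as the factor (16.1%). Within single dates the counts were 0 of 37 over 13 arrays, 1 of 37 over 12, 0 of 40 over 8 and 1 of 40 over 14, and the remaining date holds 3 arrays. Over all genes the shares within these dates were 0.593%, 3.86%, 0% and 8.61%, so the counts within dates were near or below the background. Most of each date lies within 1 cycle of the course.

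**Figure D2:**
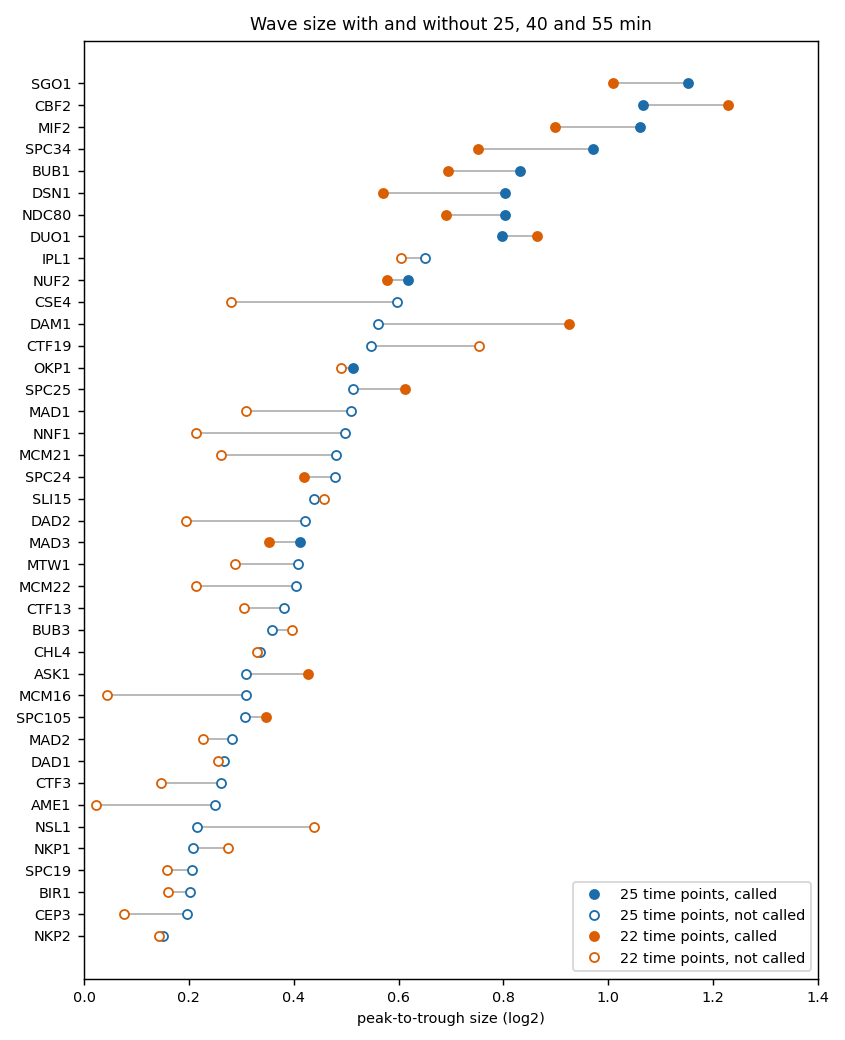
Peak-to-trough size (log2) of the fitted wave of each of the 40 genes over all 25 time points (blue) and over 22, without 25, 40 and 55 min (orange); filled points were called periodic. SGO1, CBF2 and MIF2 head the list in blue at 1.15, 1.07 and 1.06, while AME1 and MCM16 lie near 0 in orange (0.02 and 0.04).

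At the centromere, Cse4 is the histone H3 variant that replaces H3 in the centromeric nucleosome, and Mif2 is the CENP-C protein that binds it. MIF2 (YKL089W) stood at -0.51 and -0.30 on the 2 arrays of 0 min, at 0.84 and 0.68 at 20 min, at 1.73 on both arrays of 25 min and at -0.36 and -0.64 at 60 min. It was thus above 0 on both arrays from 10 to 45 min and below 0 on both from 60 to 80 min. Its wave was 1.06 ± 0.19 (SE, 25 time points), or 2.09-fold, with the fitted peak at 30.9 ± 1.9 min (limma adjusted p = 7.32e-04), and 0.90 without the 3 times. CSE4 (YKL049C) stood at 2.08 and 1.36 at 25 min, beside 0.14 and -0.11 at 20 min and 0.11 and 0.20 at 30 min. Its fitted size of 0.60 ± 0.22 (limma adjusted p = 0.111) was 0.28 without 25, 40 and 55 min, and it was not called either way (limma adjusted p = 0.0541).

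The CBF3 complex binds the conserved element of the point centromere directly, and 1 of its 3 measured genes was called. CBF2 (YGR140W), whose product is a DNA-binding subunit also named Ndc10, was lowest at 5 min, at -1.28 and -1.93, and reached 0.82 and 0.49 at 20 min and 0.71 and 0.39 at 35 min. Both arrays were lower at 25, 40 and 55 min, for example at -0.20 and -0.51 at 25 min and at -0.91 and -0.78 at 55 min, the opposite of MIF2 and CSE4. Its wave of 1.07 ± 0.23 peaked at 34.4 ± 2.4 min (limma adjusted p = 0.00415) and was 1.23 without the 3 times. At 110 min the arrays were at -0.21 and 1.58, so its highest late value rests on 1 array. CEP3 had a size of 0.20 ± 0.14 and CTF13, a member of the F-box family, 0.38 ± 0.14; neither was called.

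The Ctf19 complex links the centromeric nucleosome to the outer layers. Of its 4-gene COMA core OKP1 alone was called, and of the other 6 tested subunits none by limma (1, CHL4, had an unadjusted p under 0.05, with an adjusted p of 0.105). OKP1 (YGR179C) lay between -0.46 and -0.72 on 3 of 4 arrays of 5 and 10 min and at 0.67 on the fourth, and had no value at 20 min. At 35 to 50 min its 2 arrays stood between 0.12 and 0.43. The wave was 0.51 ± 0.12 with its peak at 41.8 ± 2.7 min (limma adjusted p = 0.00811), and the call held in 6 of the 15 alternatives in which it was tested and with 8 of 25 time points left out in turn. CTF19 (YPL018W) varied more from time to time than OKP1. Its arrays were at -2.16 and -1.81 at 5 min, -0.04 and 0.02 at 20 min, -1.12 and -1.67 at 25 min and -0.09 and 0.22 at 45 min, and its wave of 0.55 ± 0.28 was not called (limma adjusted p = 0.337). MCM21, MCM22, MCM16 and NKP2 had single high values at 25 min, with means of both arrays of 1.48, 1.35, 1.17 and 1.97. Their fitted sizes were 0.48, 0.40, 0.31 and 0.15, and without the 3 times 0.26, 0.21, 0.04 and 0.14.

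The MIND complex joins the inner kinetochore to the microtubule-binding layer. DSN1 (YIR010W) was its called member of 4. Its arrays lay at -0.96 and -0.51 at 10 min, 0.76 and 0.80 at 40 min, 0.89 and 0.54 at 55 min and -0.45 and -0.54 at 70 min. The highest values of DSN1 were those of 25, 40 and 55 min, and at 30 and 35 min between them its arrays stood between -0.16 and -0.01. The wave of 0.80 ± 0.16 peaked at 42.2 ± 2.3 min (limma adjusted p = 0.00223). It was 0.57 without the 3 times and still called (limma adjusted p = 3.11e-04). MTW1, NNF1 and NSL1 had sizes of 0.41 ± 0.17, 0.50 ± 0.21 and 0.22 ± 0.17 and were not called. SPC105 (YGL093W), the scaffold that recruits Bub1 to the kinetochore, had a size of 0.31 ± 0.08 (limma adjusted p = 0.0214), and 0.35 without the 3 times, where it was called (limma adjusted p = 0.00762).

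The Ndc80 complex is the rod that grips the microtubule, and 2 of its 4 genes were called over the full course and 4 of 4 without 25, 40 and 55 min. NDC80 (YIL144W) stood at -0.76 and -1.04 at 0 min, 0.35 and 0.26 at 45 min, -0.71 and -0.56 at 75 min and 0.23 and 0.06 at 110 min. The sets differed at the 3 times: set 1 read 0.43, 0.95 and 0.89 at 25, 40 and 55 min, and set 2 read -0.16, 0.08 and -0.04. Its wave was 0.80 ± 0.12 with the peak at 40.2 ± 1.6 min (limma adjusted p = 9.24e-05), 0.97 in set 1 and 0.64 in set 2. NUF2 (YOL069W), its partner in the microtubule-binding head, was lowest at 5 min (-0.66 and -0.77) and was above 0 on both arrays from 45 to 70 min. Its wave of 0.62 ± 0.13 peaked at 50.8 ± 2.4 min (limma adjusted p = 0.00468). SPC24 and SPC25, which hold the complex to MIND, had sizes of 0.48 ± 0.12 (limma adjusted p = 0.0183) and 0.51 ± 0.13 (0.0145). Without the 3 times these were 0.42 and 0.61, with limma adjusted p of 0.00847 and 0.00266.

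**Figure D3:**
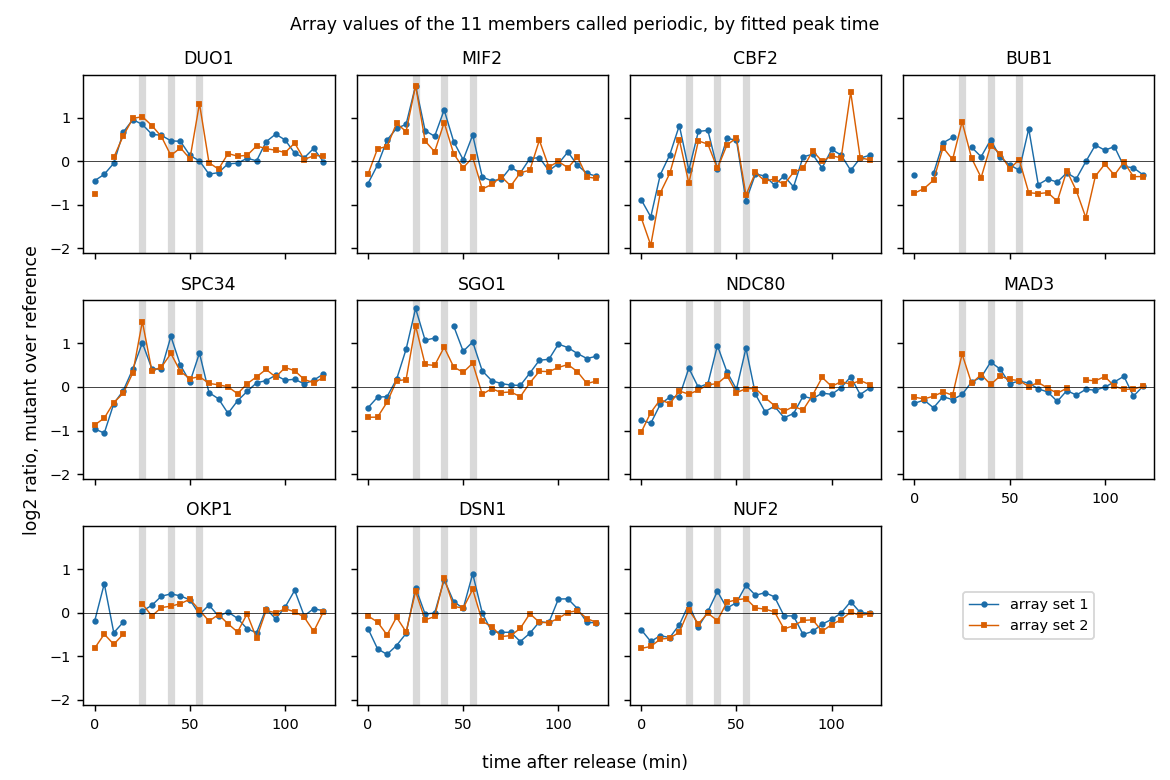
Log2 ratio of mutant over reference (y axis) by time after release in min (x axis) for the 11 genes called periodic, ordered by fitted peak time; blue circles are array set 1, orange squares array set 2, and grey bands mark 25, 40 and 55 min. In SGO1 and SPC34 the first wave is higher than the second on both arrays, and NUF2 is still above 0 at 65 and 70 min.

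The Dam1 complex forms the ring around the microtubule that couples the kinetochore to its growing and shrinking end. Of its 7 measured genes DUO1 and SPC34 were called, and DAM1 and ASK1 as well without the 3 times. SPC34 (YKR037C) was at -0.96 and -0.87 at 0 min, 1.01 and 1.5 at 25 min, 0.41 and 0.45 at 35 min, -0.61 and 0.00 at 70 min and 0.15 and 0.45 at 100 min. Its wave was 0.97 ± 0.19 with the peak at 35.2 ± 2.2 min (limma adjusted p = 0.00248). DUO1 (YGL061C) was at -0.45 and -0.75 at 0 min, 0.95 and 0.98 at 20 min and 0.62 and 0.82 at 30 min, and at 55 min the arrays read 0.01 and 1.32. The wave of 0.80 ± 0.16 had the earliest fitted peak of the 11, at 30.2 ± 2.2 min (limma adjusted p = 0.0026).

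DAM1 (YGR113W) was low on both arrays at each of the 3 times, at -1.0 and -0.72 at 25 min, -1.37 and -1.56 at 40 min and -1.64 and -0.88 at 55 min, beside 0.33 and 0.12 at 35 min and 0.68 and 0.29 at 45 min. Its fitted size went from 0.56 ± 0.27 (limma adjusted p = 0.276) to 0.93 without those times (limma adjusted p = 8.35e-04). ASK1 had a size of 0.31 ± 0.12 (limma adjusted p = 0.152) and 0.43 without them (0.00168). DAD1, DAD2 and SPC19 had sizes of 0.27, 0.42 and 0.21 and were called neither way.

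In the Aurora complex, which releases faulty attachments, none of the 3 genes was called by limma, 2 had an unadjusted p under 0.05 (IPL1 and SLI15), and IPL1, the kinase itself, came nearest. IPL1 (YPL209C) had a mean of both arrays of -0.81 at 0 min and 0.73 at 25 min, a size of 0.65 ± 0.19 and a limma adjusted p of 0.0337, with 0.0496 without the 3 times. It was called in 3 of the 15 alternatives in which it was tested. SLI15 and BIR1, its INCENP and survivin partners, had sizes of 0.44 ± 0.14 and 0.20 ± 0.09. SGO1 (YOR073W), the shugoshin that senses tension at the pericentromere, had the largest fitted wave of the 40 over all 25 time points. Its arrays stood at -0.48 and -0.70 at 0 min, 1.80 and 1.41 at 25 min, 1.4 and 0.46 at 45 min, 0.04 and -0.22 at 80 min and 0.98 and 0.45 at 100 min. Set 1 was above set 2 throughout, with the same shape. The wave of 1.15 ± 0.17, or 2.22-fold, peaked at 36.2 ± 1.7 min (limma adjusted p = 1.18e-04) and was 1.01 without the 3 times, where CBF2 had the largest (1.23). In set 2 alone CBF2 (1.13) and MIF2 (1.06) also exceeded SGO1 (1.02).

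Of the 5 checkpoint genes BUB1 and MAD3 were called, with or without the 3 times. The BUB1 call held in 11 of 16 alternatives and was lost in array set 1 alone. That of MAD3 held in 14 of 16, was lost in set 2 alone, and held with 21 of 25 time points left out in turn. BUB1 (YGR188C), the kinase that marks pericentromeric chromatin for Sgo1, stood at -0.32 and -0.73 at 0 min, 0.42 and 0.31 at 15 min, 0.49 and 0.36 at 40 min and -0.48 and -0.92 at 75 min. Its arrays disagreed at 60 min (0.74 and -0.72) and at 90 min (-0.01 and -1.30). The wave was 0.83 ± 0.16 with the peak at 34.8 ± 2.2 min (limma adjusted p = 0.00198). MAD3 (YJL013C), the yeast BubR1 protein, stood at -0.48 and -0.21 at 10 min and 0.41 and 0.25 at 45 min, and its wave of 0.41 ± 0.09 was the smallest called (peak at 40.8 ± 2.4 min, limma adjusted p = 0.00415). BUB3, MAD1 and MAD2 had sizes of 0.36 ± 0.18, 0.51 ± 0.17 and 0.28 ± 0.15. BUB3, the WD-repeat partner of Bub1, had a mean of both arrays of -1.04 at 0 min and 0.61 at 20 min, with limma adjusted p = 0.312.

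The fitted peaks of the 11 genes ran in the order DUO1, MIF2, CBF2, BUB1, SPC34, SGO1, NDC80, MAD3, OKP1, DSN1 and NUF2, from 30.2 to 50.8 min. Only the gap between DSN1 and NUF2 (8.60 ± 3.31 min) exceeded 2 SE between neighbours, and no neighbours among the first 10 were farther apart than that. Of the 55 pairs, 26 were more than 2 SE apart. For each of the 11 genes, the peaks fitted to the 2 array sets differed by at most 7.04 min. Both sets had entered the call, and over all called genes 786 of 796 differed by at most 10 min. Beside genes that mark the cycle, the span began after the G1 cyclin CLN2 (24.4 min), bracketed the histone HTA1 (35.2 min) and ended before the mitotic cyclin CLB2 (56.2 min), which itself missed the threshold (limma adjusted p = 0.0171). SIC1, a gene of mitotic exit, had its fitted peak at 6.99 min. Fitted peaks of all 40 genes lay between 25.5 and 56.5 min, a range these genes themselves set. It held the peaks of 44.1% of all genes tested and 41.9% of all called. Without 25, 40 and 55 min the 40 peaks spread from 1.62 to 60.1 min and the 15 called from 28.9 to 52.5 min.

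**Figure D4:**
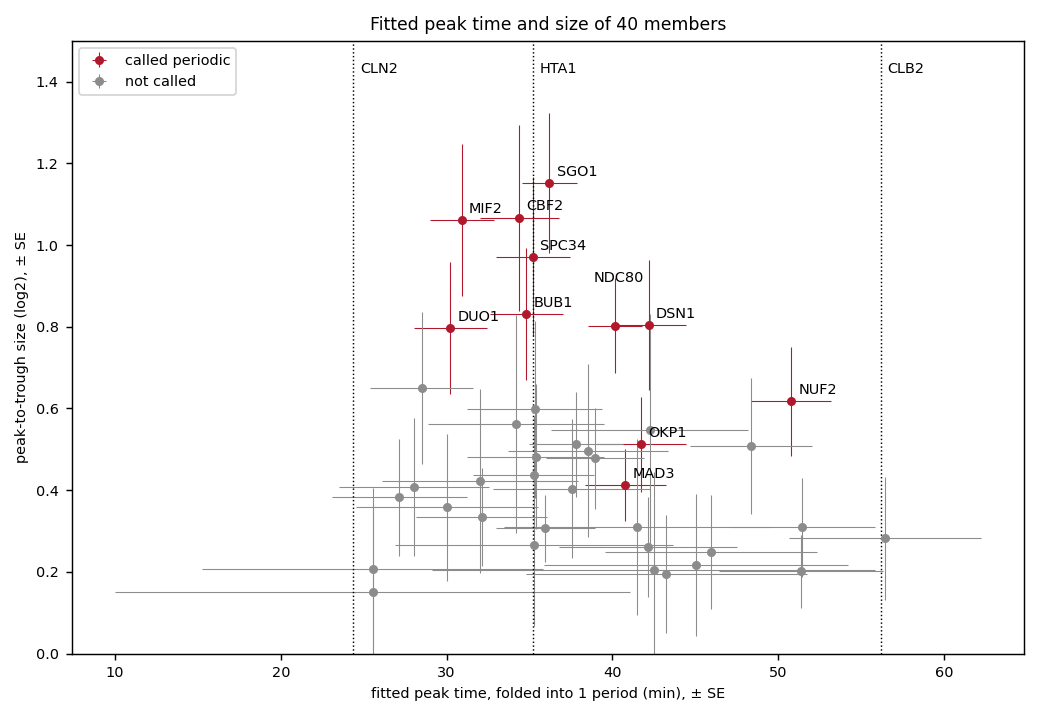
Fitted peak time in min (x axis, folded into 1 period) against peak-to-trough size in log2 (y axis) for the 40 genes, with SE bars in both directions; red points were called periodic, and dotted lines mark the peaks of CLN2, HTA1 and CLB2. The called genes lie between the CLN2 and CLB2 lines, with NUF2 alone past 45 min.

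The times 25, 40 and 55 min coincided with many of the peaks. The highest first-cycle value fell at one of these times in 29 of the 40 genes and in 7 of the 11 called. The same count was not made over all genes, and the arrays of these times tended to a wider spread over genes. The count can therefore not be read as a trait of this set. At 25 min the genes stood above the mean of their neighbouring times by a median of 0.56 (29 of 39 higher), at 40 min by 0.29 (28 of 40) and at 55 min by 0.28 (29 of 40). Over all genes these medians were 0.02, 0.02 and 0.01, with 3005 of 5911, 3073 of 5999 and 3037 of 6024 genes higher. The part of these samples in the fitted waves was measured directly by leaving them out: the median size of the 40 was then 0.35 in place of 0.43, and that of all genes 0.28 in place of 0.30.

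The height of the wave was then compared between the cycles. Title dates largely follow the part of the course, so cycle and date cannot be told apart in this comparison. When the wave was allowed to change in time, its fitted height at 90 min was below that at 30 min in 36 of 40 genes (90%), against 75.2% of all genes. Among called genes this held in 11 of 11, against 700 of 799 over all called. It also held in 29 of the 33 other spindle and chromosome segregation genes described below (87.9%), and in 17 of their 18 called. The median ratio of the later to the earlier height was 0.43 over the 40 and 0.44 over the 11 (0.21 for SPC34 to 0.76 for NUF2), against 0.60 over all genes and 0.54 over all called. The F-test of the change, which takes in a shift of timing as well as of height, was passed by SPC34 alone (limma adjusted p = 0.00702). Its height was 1.45 at 30 min and 0.30 at 90 min. In all, 4.57% of genes passed. That call did not survive most alternatives: it was lost in 22 and kept in 17, and was absent with either array set alone. Without 25, 40 and 55 min 10 genes passed, against 20.3% of all genes. They were SPC34, DUO1, SGO1, DSN1, NUF2, CTF19, MAD3, BUB3, CBF2 and NKP1. Among these DUO1 went from 1.34 to 0.40 (limma adjusted p = 2.61e-04), BUB3 from 0.99 to 0.19 (0.00568) and CBF2 from 1.79 to 0.65 (0.00625).

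**Figure D5:**
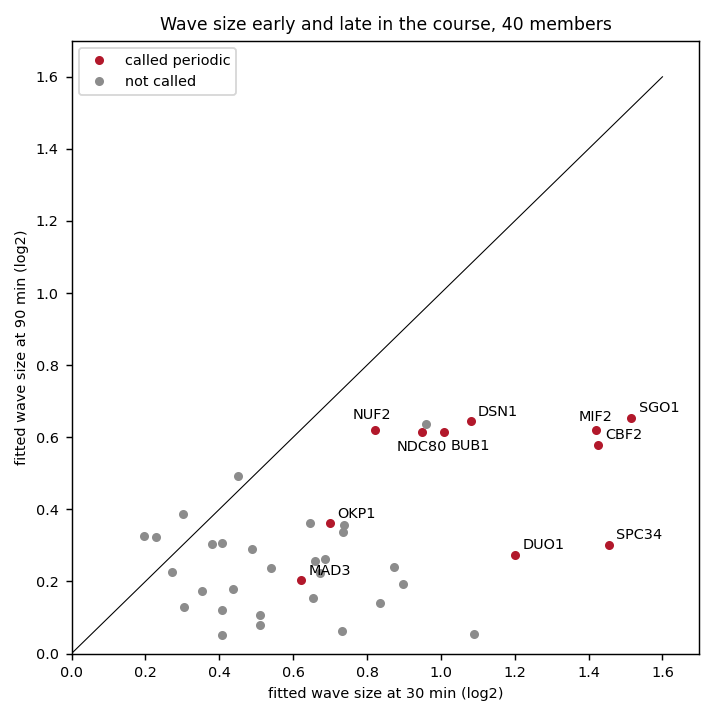
Fitted wave height (log2) at 30 min (x axis) and at 90 min (y axis) for the 40 genes, from a fit over all 25 time points in which the wave may change linearly in time; the line marks equal heights and red points were called periodic. The 11 red points lie below the line, and SPC34 and DUO1 lie farthest below it among them.

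The cells just released were compared with cells about 1 period later. Early and later arrays carried different title dates except for set 2 at 10 min, so window and date cannot be told apart in most of this contrast. At 0, 5 and 10 min NKP1 alone of 40 genes was higher than at 70, 75 and 80 min and none was lower, against 1.12% and 0.678% of all genes. NKP1 (YDR383C), a nonessential subunit of the Ctf19 complex, stood at 0.60 and 0.70, 0.70 and 0.63, and 0.67 and 0.03 on the arrays of 0, 5 and 10 min. At 70, 75 and 80 min it stood at -0.06 and -0.62, -0.25 and -0.55, and 0.02 and -0.56. The 2 windows did not overlap on any array, although the nearest values were 0.03 and 0.02. The value of 0.03 was that of set 2 at 10 min, the early array that shared its title date with later arrays. The difference was 0.89 ± 0.12 (limma adjusted p = 0.00998), next to the threshold, and it was lost in 13 of the alternatives and kept in 5. NKP1 also stood at 1.55 and 0.88 at 25 min.

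At an unadjusted p under 0.05, 8 genes were lower in the first window and 1 was higher, by limma on 3 time points against 3. Over all 6051 genes tested in this contrast 811 were lower and 773 higher at that threshold. The nearest to the threshold were NUF2, at -0.56 ± 0.14 (limma adjusted p = 0.0664), and SGO1, at -0.39 ± 0.11 (limma adjusted p = 0.0905). The largest negative difference was that of CTF19, -0.80 ± 0.35 (limma adjusted p = 0.2), with window means of -1.56 and -0.75. CBF2 followed at -0.63 ± 0.26, with means of -1.07 and -0.45. Over the 40 genes the median difference was -0.05, and 26 of 40 were negative, against -0.0081 and 3095 of 6051 over all genes.

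In the mean over the course, none of the 40 genes passed limma's treat test against a fold change of 1.5, while 2.08% of all genes passed above and 3.61% below it, and 1 gene (CTF19) had an unadjusted p under 0.05. Means ran from -0.86 to 0.64 with a median of 0.0011, and 37 of 40 were within 0.5 of the reference, as were 4885 of all 6063 genes. The centring of each array sets the median over all its genes to 0, so these means are relative to that median. CTF19 was below 0 on 48 of 50 arrays, with a mean of -0.86 ± 0.10 (limma adjusted p = 0.066), and NSL1 (YPL233W) on 49 of 50, with a mean of -0.61 ± 0.06. AME1, another COMA subunit, was below 0 on 46 of 50 arrays (mean -0.45 ± 0.05). Its neighbour in the complex MCM21 was above 0 on 47 of 48 (mean 0.39 ± 0.06), so the COMA genes did not share a direction.

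The highest mean was that of CHL4 (YDR254W), 0.64 ± 0.04, with 46 of 50 arrays above 0. Set 1 gave it 0.97 and set 2 0.31, and it passed the test in set 1 alone. Set means differed by more than 0.3 in 8 genes, a count not made over all genes. Set 1 was the higher in MAD2 (0.74 and -0.07), CEP3 (0.68 and 0.02) and SPC19 (0.74 and 0.15), and the lower in MTW1 (-0.26 and 0.22). Signs were opposite in MAD2 and MTW1, and also in ASK1 (-0.35 and 0.08) and NKP1 (0.15 and -0.18). MAD2 and SPC19 had values at fewer than 20 time points in set 1. DAD1 (0.49 ± 0.07), NKP2 (0.47 ± 0.07) and NNF1 (0.42 ± 0.07) were above the reference with both sets alike in sign. Against a fold change of 1, where 33.2% of all genes passed above and 33.4% below, 12 of the 40 passed above and 7 below.

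Other genes of the spindle and of chromosome segregation were looked at beside the set. Of 40 listed genes 33 were in the table, and 18 of these (54.5%) were called periodic by the same limma test, with a median size of 0.71 against 0.43 for the kinetochore and checkpoint genes. Without 25, 40 and 55 min 25 of 33 were called. The largest waves were those of the cohesin subunit MCD1 (2.5 ± 0.38, peak at 25.2 min), the polo kinase CDC5 (1.62 ± 0.23, 53.5 min), the securin PDS1 (1.53 ± 0.16, 31.1 min) and the cohesin subunit IRR1 (1.44 ± 0.20, 25.4 min). The other called genes were SMC1, SMC3, ESP1 and CDC20 of cohesion and its release, the motors and microtubule proteins CIN8, KIP1, VIK1, STU2, ASE1, TUB1 and TUB2, and SLK19, YBP2 and MPS1. MPS1, the checkpoint kinase that acts above Bub1, had a wave of 0.41 ± 0.09 with its peak at 41.4 ± 2.6 min, next to MAD3 in both values. The largest wave in the kinetochore set was 1.15 for SGO1, or 1.23 for CBF2 without 25, 40 and 55 min.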

How the data were processed

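Two-colour arrays of a yox1 deletion time course were used (50 arrays, 25 time points). The authors deposited 1 table of log10 ratios. The base was inferred from the limits of the deposited values, exactly -2 and 2 (a ratio of 100), and the direction from the dyes per the labels and from FUS1 at 0 min. How spots were scanned, background-corrected and normalized is not given in the sources used here. Spot intensities were not analysed, and precision is limited by the number of arrays. Of 6217 rows, 12 controls were left out. Gene names for 5703 ORFs were matched on locus tags of the R64 assembly. The file names no build, so no coordinates are given. Between 5528 and 6110 ORFs had a value on each array (4.34% missing overall).

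Values at either limit were treated as missing, and log2 values were centred on the median of each array. Each time point entered as the mean of its 2 arrays, and genes with 20 or more time points were tested. Tests used limma 3.58.1 in R 4.3.3 and figures matplotlib 3.10.9 in Python 3.11.15. The period (70 min; 70 and 69 in the sets alone) minimised the residual variance of 41 landmark genes, none of them in the set described. Each fit held cosine, sine and linear time terms. The change of the wave was tested by adding products of cosine and sine with time. Scripts were tested on simulated data. The genes described, the lists and the naming rule (every called gene and the largest and smallest wave per complex, and the called and 4 largest of the other spindle genes) were chosen with earlier results of these data known. A planned count of promoter motifs was not run, because no sequence was used here.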

Additional observations from a re-analysis of the deposited data

Results flagged for a closer look

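SPC34, the Dam1 complex subunit, was the only 1 of the 40 genes to pass the test of a changing wave, which 4.57% of all genes passed. Its fitted height at 90 min minus that at 30 min was -1.15 on the log2 scale, with 1.45 at 30 min and 0.30 at 90 min (limma adjusted p = 0.00702). The arrays at 25 min stood at 1.01 and 1.5, and the difference remained past the threshold without 25, 40 and 55 min, with heights of 1.18 and 0.29 (limma adjusted p = 1.08e-04). Without these times 10 of the 40 genes and 20.3% of all genes passed. The call of SPC34 was less stable under other settings. It did not pass with either array set alone, and it was lost in 22 and kept in 17 of the alternatives, single time points left out included. The F-test takes in a shift of timing as well as of height. Title dates largely follow the part of the course, so cycle and date cannot be told apart. The cause was not tested.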

How the results depend on the processing

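The count of 11 periodic genes kept within 1.5 times under 16 of the alternatives and moved under others. It was 5 of 40 with array set 2 alone (11.5% of all genes), 7 of 40 with set 2 alone and without 25, 40 and 55 min (17.4% of all genes; chosen after seeing the data), 6 with 2 harmonics, 7 with title date as a factor and the time point as a random block, and 0, 1, 0 and 1 within the title dates of 13, 12, 8 and 14 arrays. The 18 other spindle genes became 2, 7, 0 and 10 within these dates. SGO1, NDC80 and SPC34 were called in all 16 alternatives counted per gene (the date, array-set and harmonic fits aside) and with each of the 25 time points left out. Calls held in 15 of 16 for CBF2, DUO1 and MIF2, 14 for DSN1 and MAD3, 13 for NUF2 and 11 for BUB1, and in 6 of 15 for OKP1. With a time point left out the counts were 8 to 13 for periodic genes (8 without 35 min, 13 without 25 min), 15 to 20 for the other spindle genes, 0 to 1 for genes higher and for genes lower in the first window, 0 to 4 for a changing wave and 0 to 0 for means past 1.5-fold. Genes with a mean above the reference numbered 1 in array set 1 alone and 12 at a fold change of 1, and those below numbered 7 at a fold change of 1. The 1 gene higher in the first window became 0 in either set alone, with no centring, no filter, values on the limits kept, without the array of conflicting labels, without the arrays titled M and in 1 fit over all windows. The 1 gene with a changing wave became 0 in either set alone, with no centring and with no time trend, 2 without the array of conflicting labels and with a period 5 min longer, 6 at an adjusted p under 0.05 and 10 without 25, 40 and 55 min. The cause of these shifts was not tested. With the array set as a factor and the time point as a random block, 9 genes were periodic and 21 of the other spindle genes. A wave size cannot be negative, so a sign could turn only in the chosen means, the NKP1 difference and the SPC34 change. None of these turned in any of the alternatives. Of the peak times fitted in the alternatives, 62 lay more than 1 SE from that of the main fit and 1570 did not.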
